A study of Drosophila melanogaster with 13 samples.

Results

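Sorted secondary cells of 2 mutant fly lines were compared: one carries the lesion iab-6cocuD1, named after a regulatory domain of the Bithorax complex, and the other lacks only the micropeptide MSAmiP. The comparison took in 6 of the 13 libraries of the series, 3 per mutant, and every gene of the count table with enough counts for a test, which was 8222 of 16727 gene symbols. The first mutant, called D1, had the genotype D1:GAL4, UAS-GFP; iab-6cocuD1, and the second, called miP, had the genotype D1:GAL4, UAS-GFP; delta MSAmiP. A further 3 sorted libraries carried the driver and reporter without a lesion (D1:GAL4, UAS-GFP) and served as wild type. They are used here for the shared estimate of spread and to place each mutant. All 9 libraries therefore carried the same GAL4 driver and the same UAS-GFP reporter, and the cells sorted in each are those in which the driver was active. Flies were males aged 5 to 11 days, and each group had 3 biological replicates, without a statement of how many flies made up each. Glands were dissected, dissociated with a protease and sorted by fluorescence, and RNA was amplified from oligo(dT)-primed cDNA. The question set by the design is which transcripts depend on the wider region touched by the D1 lesion and not on the micropeptide alone.

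Secondary cells are large, vacuole-filled epithelial cells at the tip of the male accessory gland, where they secrete seminal fluid proteins beside the far more numerous main cells. The Bithorax complex holds the Hox genes Ubx, abd-A and Abd-B together with a series of regulatory domains, among them iab-6, and several long non-coding transcripts. The iab-8 transcript unit runs between abd-A and Abd-B and gives rise to the male-specific abdominal transcript (msa), which encodes MSAmiP. Loss of iab-6 function is known to alter secondary cell shape and the long-term response of females to mating.

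In units of 1e6 counted reads, the D1 libraries held 20.99, 19.4 and 21.3 and the miP libraries 18.6, 20.8 and 18.2. Values per library are given below as CPM, counts scaled to a library total of 1e6, in the order of replicates 1, 2 and 3. Log2 fold changes are D1 minus miP. Adjusted p-values come from edgeR's quasi-likelihood F-test with Benjamini-Hochberg adjustment over the 8222 genes, with a threshold of 0.05. Standard errors (SE) were back-calculated as the absolute log2 fold change divided by the square root of F. The fold changes are further scaled by TMM factors for composition, since a few secreted products took most of the reads: the 10 most abundant genes of each library held 72.5, 58.2 and 56.3% of the counts in D1 and 76.0, 70.6 and 70.4% in miP. The TMM factors were 0.905, 1.52 and 1.58 in D1 and 0.797, 1.01 and 1.06 in miP, so equal CPM in both mutants corresponds to a negative log2 fold change. Replicate 1 had the lowest TMM factor in both mutants and stood apart from replicates 2 and 3 in D1. Within D1 Spearman's rho between libraries was 0.986 for replicates 2 and 3 but as low as 0.883 for pairs with replicate 1, within miP it was 0.952 to 0.957, and between the mutants 0.822 to 0.919. On the first principal component of the 9 libraries, with 39.4% of the variance, D1 had scores of 59.4 to 69.7, miP of -40.9 to -30.6 and wild type of -36.1 to -21.4.

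The sorted cells of both mutants carried 7 markers of secondary cells. The genes abd-A and iab-8 mark these cells too but were left out, on the premise that the D1 lesion affects them. Both genes were lower in D1, as given below, and the extent of the lesion was not checked here. The summed level of the 7 markers (Abd-B, dve, Rab19, CG17575, lectin-46Ca, lectin-46Cb and mfas) was 197497 to 248223 CPM in D1 and 264705 to 324363 in miP, mostly from CG17575 and the lectins. Of the 7 markers 2, both lectins, were lower in D1. That count was 4 without D1 replicate 1, 1 without any other single library, 1 with no filter, and 0 in fits of all 13 or of the 6 D1 and miP libraries. The markers of main cells summed to 547 to 1838 CPM in D1 and 155 to 690 in miP, over 15 genes of which 1 was at 0 counts in the 6 libraries. Of 14 main cell markers tested, 1 was higher in D1. Markers of the muscle sheath summed to 10.7 to 27.6 and 12.6 to 20.04 CPM, those of the ejaculatory duct and bulb to 3.91 to 20.8 and 1.70 to 3.82, those of testis to 0.476 to 1.60 and 0.0549 to 2.93, and those of haemocytes and fat body to 10.5 to 26.02 and 13.4 to 25.4, in D1 and miP in that order. No tested marker of these last 4 kinds passed the threshold, with 6 of 10 muscle markers, 3 of 5 duct markers, 8 of 9 testis markers and 6 of 8 haemocyte and fat body markers under 1 CPM in all 6 libraries. A longer muscle list, with 11 of 26 genes tested, had 1 higher gene, Msp300, which encodes a giant protein of the nuclear envelope, at 176, 282 and 302 CPM in D1 and 79.1, 104 and 129 in miP (adjusted p = 0.0188, log2 fold change 0.82 ± 0.18). It was not past the threshold without D1 replicate 2 or miP replicate 1 or 2 (0.0557 to 0.0745). The part of these traces in the results below was not tested. Here, as in any bulk sample, fewer cells of a type and less RNA per cell cannot be told apart.

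The 2 mutants differed in 867 genes, or 10.5% of those tested. Of these 554 (6.74%) were higher in D1 and 313 (3.81%) lower, while 2030 had an unadjusted p under 0.05. Of the called differences 503 of the 554 and 263 of the 313 exceeded 2-fold, which the threshold itself favours at 3 libraries a group, and the median log2 fold change was 2.10 among the genes higher in D1 and -1.53 among those lower, against 0.04 over all genes tested. Among the called genes, 542 of the 554 had all 3 D1 libraries above all 3 miP libraries in CPM, an order found in 24.3% of all genes tested. For 202 of the 313 the 3 D1 libraries lay below the 3 miP libraries, an order found in 3.78% of all genes. Scaled by library totals alone, the median log2 fold change over all genes moved from 0.04 to 0.51, and the calls to 1032 higher and 126 lower, so that 89.1% in place of 63.9% of calls were higher in D1. All 554 higher genes and 119 of the 313 lower genes were among them, and the directions below are relative to the TMM-scaled median.

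**Figure D1:**
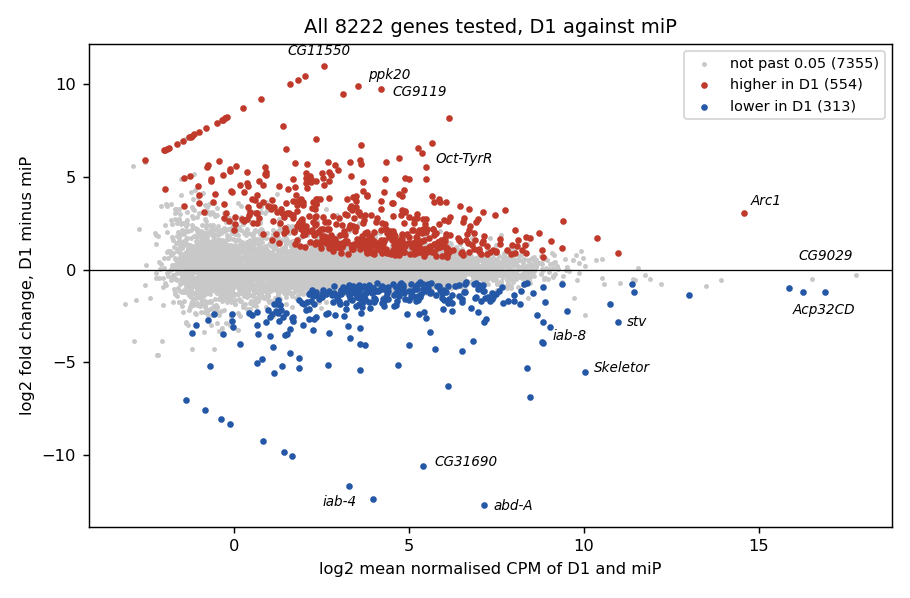
Each point is 1 of 8222 genes, placed by its log2 mean normalised CPM in D1 and miP (x axis) and its log2 fold change, D1 minus miP (y axis), with 554 genes higher in D1 in red, 313 lower in blue and the rest grey. The fitted values of genes with 0 counts in a mutant, which form the slanted lines at left, depend on the prior count; abd-A and iab-4 lie lowest and Arc1 is the most abundant gene among those higher in D1.

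The calls were spread over all chromosome arms. Higher genes made up 5.76% of those tested on 2L, 6.19% on 2R, 6.78% on 3L, 6.88% on 3R and 8.20% on X, and lower genes 3.69, 3.04, 4.94, 4.77 and 2.20% in the same order. Of 267 tested non-coding genes, 17 were higher and 18 lower, which is 6.37 and 6.74%, against 6.78 and 3.71% of 7878 protein-coding genes. Whether these shares differ was not tested.

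The lowest fold changes lay in the Bithorax complex, on chromosome arm 3R (all positions are dm6). Of 14 annotated genes between the outer ends of Ubx and Abd-B, 11 passed the filter on low counts, 8 of these were lower in D1 and 0 higher. The Hox gene abd-A (16807214 to 16830049) stood at 0.0476, 0 and 0.0938 CPM in D1 and 218, 242 and 352 in miP. The 3 D1 libraries together held 3 counts of abd-A and the 3 miP libraries 15505, a ratio of 7709 (95% exact interval 2637 to 37390, covering counting error only, as do all such intervals and bounds below; adjusted p = 7.35e-07). D1 without replicate 3 gave a fitted log2 fold change of -13.33 in place of -12.70.

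On the side of abd-A toward Ubx, 5 further tested genes had 0 counts in every D1 library. Glut3 (16788311 to 16790021), a sugar transporter gene, stood at 12.3, 17.9 and 25.98 CPM in miP and was at least 534.5-fold lower in D1 (floor of 3 counts over the group; adjusted p = 2.04e-05). Between Glut3 and abd-A lie a pair of neighbouring non-coding genes. CR45750 stood at 3.82, 6.77 and 7.74 CPM in miP and CR45751 at 4.09, 5.38 and 5.99. They were at least 175.5-fold and 147.7-fold lower in D1 (adjusted p = 7.88e-05 and 6.86e-05). The bxd transcript (16742125 to 16773189), a long non-coding RNA next to Ubx, stood at 3.17, 2.98 and 3.84 CPM in miP and was at least 94.96-fold lower (adjusted p = 2.67e-04). CG31275, a protein-coding gene inside bxd on the same strand, held 1.24, 0.288 and 2.91 CPM in miP, and D1 was at least 40.77-fold lower (adjusted p = 0.0143). Its fitted log2 fold change of -8.05 became -7.32 without miP replicate 3. This stretch of 0 counts ended before Ubx (16656623 to 16734426), the Hox gene of the thorax and anterior abdomen, which stood at 1989, 1861 and 2058 CPM in D1 and 2232, 2599 and 2519 in miP. All 3 D1 values of Ubx lay below the miP values, but the difference did not pass the threshold (log2 fold change -0.72 ± 0.25, adjusted p = 0.108).

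On the side toward Abd-B the genes differed among themselves: iab-8 was reduced, iab-4 had 0 counts in D1, and CR43617 and Abd-B did not pass the threshold. The iab-8 unit (16831116 to 16923231) held 45.03, 85.97 and 91.3 CPM in D1 and 818, 720.4 and 879 in miP, without overlap, and was 15.7-fold lower in D1 (log2 fold change -3.97 ± 0.24, adjusted p = 1.49e-05). The non-coding iab-4 transcript (16850004 to 16856497), annotated within iab-8 but on its other strand, had 0 counts in D1 and 19.7, 28.7 and 42.01 CPM in miP, at least 860.1-fold more (adjusted p = 1.49e-05). Its reads cannot be told from those of iab-8 where the annotations overlap, because the libraries keep no strand. CR43617, a non-coding gene placed in the same way, stood at 101, 50.6 and 51.9 CPM in D1 and 49.1, 36.6 and 52.3 in miP. Replicate 1 of D1 was the highest and the groups overlapped (log2 fold change 0.27 ± 0.44, adjusted p = 0.792), and without that replicate the value was -0.57. Abd-B (16927212 to 16972236), the Hox gene of the posterior abdomen, stood at 133, 127 and 166 CPM in D1 and 121, 109.9 and 185 in miP, with overlap (log2 fold change -0.37 ± 0.26, adjusted p = 0.457, and 0.04 with library totals alone). CR44945 and the microRNA genes mir-iab-4 and mir-iab-8 had too few counts for a test, the microRNA genes with 0 in all 6 libraries.

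The deletion that defines miP cannot be checked from these counts. MSAmiP is annotated on the minus strand of 3R at 16831115 to 16896293, inside the iab-8 unit, and its coding part lies in exon 8 at 16831514 to 16831573 (60 nt, 20 codons). A shorter coding part spans 16831514 to 16831540 (27 nt, 9 codons). MSAmiP was not analysed here apart from the iab-8 unit, which as a whole stood at 955, 759 and 804 CPM in wild type beside the miP values above. In D1, abd-A was near 0 in all 3 libraries, against 175, 202 and 210.1 CPM in wild type.

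**Figure D2:**
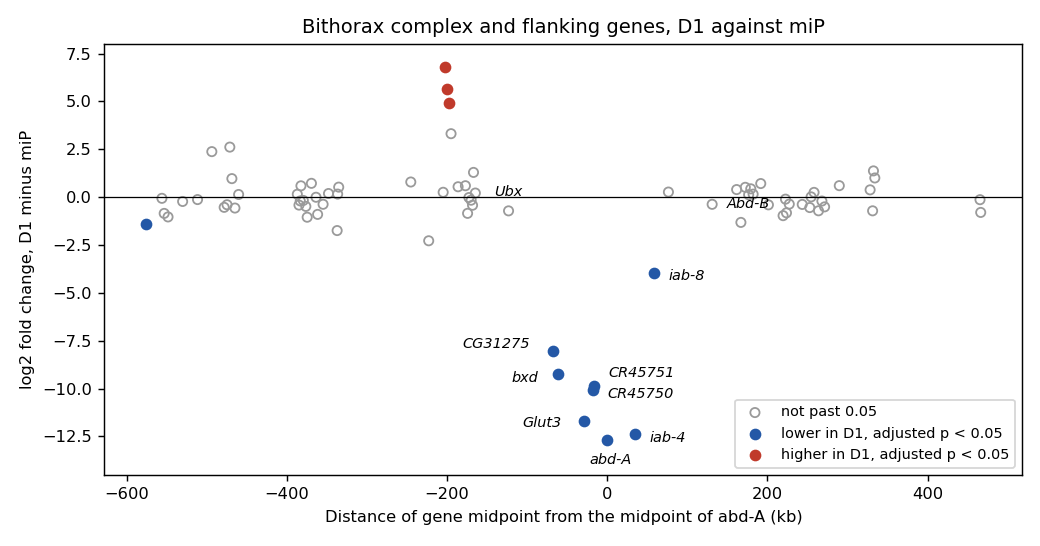
Log2 fold change of each tested gene, D1 minus miP (y axis), against the distance of its midpoint from that of abd-A (x axis, kb) on 3R, from 400 kb before Ubx to 400 kb beyond Abd-B; filled points passed an adjusted p of 0.05. The 8 lower genes of the complex lie between bxd and iab-8, Ubx and Abd-B lie near 0, and the fitted values of the 6 genes with 0 counts in D1 depend on the prior count.

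Beside the complex, within 400 kb before Ubx, 3 of 43 tested genes (6.98%) were higher in D1 and 1 (2.33%) lower, close to the 6.74 and 3.81% over all genes. At an unadjusted p under 0.05 these were 9 higher and 7 lower, or 20.9 and 16.3% against 14.2 and 10.5% over all genes. Within 400 kb beyond Abd-B, 0 of 26 passed the threshold in either direction, with 3 higher and 3 lower at an unadjusted p under 0.05 (11.5% each). The 3 higher genes, CG17562, CG17560 and CG14893, are neighbours between 16615309 and 16622702. CG14893 stood at 5.91, 13.1 and 17.6 CPM in D1 and 0.108, 0.144 and 0.604 in miP (adjusted p = 7.16e-04, log2 fold change 4.91 ± 0.59), and its log2 fold change was 5.93 without miP replicate 3. CG17562 had 50 counts in D1 and 0 in miP, at least 11.17-fold higher in D1. Its adjusted p of 0.0325 became 0.0515 to 0.0922 with any 1 library of D1 or miP left out, 0.103 with the replicate number as a block and 0.0664 without replicate 1 of both mutants. CG17560 had 103 and 1 counts, a ratio of 69.05 (12.12 to 2754). The single miP count was in replicate 3, and no fold is given without that library. Its adjusted p of 0.0167 became 0.0507 to 0.0682 without D1 replicate 2 or 3 or miP replicate 1 or 2. The lower gene was tara, farther out, at 3.76, 9.28 and 9.28 against 14.4, 11.1 and 14.004 CPM (log2 fold change -1.38 ± 0.29, adjusted p = 0.0137, but 0.051 without miP replicate 1 and 0.171 with library totals alone). Among 13 tested genes of homeodomain factors, 1 was higher and 1, abd-A, lower (7.69% each, against 6.74 and 3.81% over all genes). At an unadjusted p under 0.05, 5 (38.5%, against 10.5% over all genes) were lower. At the adjusted threshold there were 3 lower without D1 replicate 1, 2 without D1 replicate 3 or miP replicate 2, 2 and 3 with the replicate block on 9 and 6 libraries, 2 with no filter and 4 with DESeq2. The higher gene was exd, which encodes a cofactor of Hox proteins, at 32.4, 46.2 and 73.3 CPM in D1 and 8.60, 6.004 and 10.1 in miP (adjusted p = 0.00112, log2 fold change 2.10 ± 0.28).

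A further 3 genes outside the complex were off in D1 and on in miP. With a limit of at least 5 CPM in the 3 libraries of a mutant and under 1 CPM in the 3 of the other, 6 genes were on in miP and off in D1: abd-A, iab-4 and Glut3 of the complex, and CG31690, CG7166 and CG17928. All 6 also had at least 5 CPM in the 3 wild-type libraries. CG31690, now named Tmtc1 and of a family of O-mannosyltransferases known in mammals, stood at 0.0476, 0.0516 and 0.0938 CPM in D1 and 65.7, 105 and 70.2 in miP (adjusted p = 6.84e-07, log2 fold change -10.60 ± 0.39). CG7166 stood at 0.0953, 0.413 and 0.188 against 5.97, 5.57 and 8.40 CPM, and CG17928 at 0.429, 0.670 and 0.234 against 10.2, 15.6 and 9.34. Their log2 fold changes were -5.32 ± 0.44 and -5.15 ± 0.46 (adjusted p = 6.84e-05 and 1.08e-04).

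Other genes with the lowest fold changes were still detected in D1. CG13822 (GILT3), of the family of lysosomal thiol reductases, held 7.19, 4.90 and 9.71 CPM in D1 and 789, 496 and 616 in miP, 119-fold lower in D1 (adjusted p = 1.91e-05). CG15864 held 1.05, 2.53 and 3.80 against 151, 119 and 104 CPM (log2 fold change -6.26 ± 0.38, adjusted p = 1.49e-05). Skeletor, which encodes a nuclear protein found on the mitotic spindle matrix, held 22.2, 89.7 and 75.5 CPM in D1 and 1229.8, 2118 and 2564 in miP, 46.2-fold lower in D1 (adjusted p = 2.19e-05). In each of these genes every D1 library was below every miP library, which the rule for naming them required. The beta-galactosidase gene Gal fell from 17.5, 26.4 and 23.8 CPM in miP to 0.524, 1.24 and 0.375 in D1 (log2 fold change -5.44 ± 0.40), and the cytochrome P450 gene Cyp6d5 from 603, 617 and 592 to 26.2, 17.9 and 12.4 (-5.31 ± 0.48, and -6.03 without replicate 1 of D1). CG43218 fell by 5.14 and CG6912 by 4.79 on the log2 scale, the latter to -6.12 without replicate 1 of D1, and the adjusted p of these 4 genes lay between 2.19e-05 and 0.00446.

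In the other direction, 35 genes were on in D1 and off in miP by the same limits. Of these, 29 were under 1 CPM in the 3 wild-type libraries as well and 0 had at least 5 CPM there. CG11550 stood at 12.8, 16.7 and 16.2 CPM in D1 and had 0 counts in miP, at least 209.8-fold higher in D1 (adjusted p = 2.79e-04). CG10880 (daed), which acts in the piRNA pathway at mitochondria, stood at 10.1, 10.8 and 9.80 CPM in D1, at least 141-fold higher (adjusted p = 0.00116). CR32207, a long hairpin RNA, stood at 8.20, 6.55 and 7.22 CPM, at least 101.2-fold higher (adjusted p = 0.00235). These 3 genes had 0 counts in each miP library. The ferlin gene mfr, known from sperm and fertilization, had 3.76, 16.4 and 9.94 CPM in D1 and 0 counts in miP, at least 136.1-fold higher (adjusted p = 0.00221).

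Further genes with the largest fold changes in favour of D1 had low but detected levels in miP. Syn2, a syntrophin of the dystrophin complex, held 83.3, 247 and 269 CPM in D1 and 0.215, 1.10 and 0 in miP (adjusted p = 3.25e-04, log2 fold change 8.21 ± 0.88, and 10.13 on the log2 scale without miP replicate 2). The synapse-associated protein gene Sap47 held 78.6, 115 and 132 against 0.161, 2.45 and 0.439 CPM (log2 fold change 6.28 ± 0.74, and 7.99 without miP replicate 2). Retinophilin (rtp), known from photoreceptors, held 116, 77.2 and 76.9 against 1.24, 0.720 and 0.220 CPM (log2 fold change 6.56 ± 0.68, 5.97 without D1 replicate 1 and 7.33 without miP replicate 1). The groups did not overlap in these genes, which the rule for naming them required. Replicate 1 of D1 was the lowest D1 library for the first pair and the highest for rtp. The 7B2 gene, whose product binds a prohormone convertase, held 25.3, 45.7 and 23.6 against 0.269, 0.144 and 0.220 CPM (log2 fold change 6.74 ± 0.82, adjusted p = 7.42e-04). PK2-R1, a receptor for pyrokinin peptides, had 416 counts in D1 and 1 in miP, a ratio of 279 (49.8 to 11040), and its miP count was in replicate 1. The chaperone gene Hsc70-2 held 5.96, 16.4 and 20.2 against 0, 0.192 and 0 CPM (log2 fold change 7.04 ± 0.82), with its miP counts all in replicate 2, so that no fold is given without that library. The non-coding RNA CR44914 had 418 and 3 counts, a ratio of 93.4 (31.7 to 455). The miP counts were all in replicate 3, and without miP replicate 2 its fitted log2 fold change of 6.52 was 5.92.

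**Figure D3:**
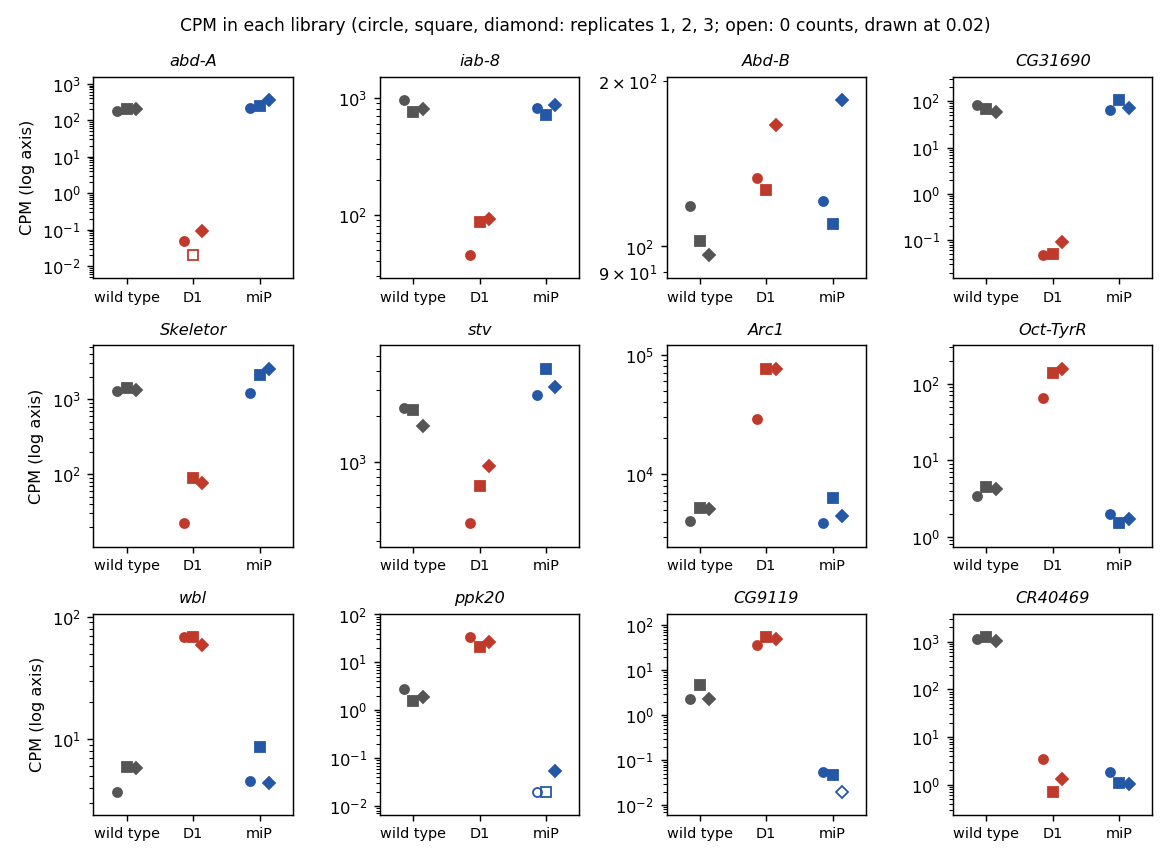
CPM of 12 genes (log y axes) in each of the 9 libraries, with wild type in grey, D1 in red and miP in blue; circles, squares and diamonds are replicates 1, 2 and 3, and open symbols are 0 counts drawn at 0.02. D1 lies apart from both other groups in abd-A, iab-8, CG31690, Skeletor, stv, Arc1, Oct-TyrR and wbl, all 3 groups differ in ppk20 and CG9119, and CR40469 separates both mutants from wild type.

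A few genes separated all 3 genotypes. The sodium channel gene ppk20, of the pickpocket family, stood at 34.1, 21.04 and 27.2 CPM in D1, 2.72, 1.56 and 1.92 in wild type and 0, 0 and 0.0549 in miP. That is 1704 counts in D1 against 1 in miP, a ratio of 1142 (204.8 to 45150; adjusted p = 5.03e-05), with the miP count in replicate 3. CG9119, on 3L, had the same order with 36.98, 55.8 and 51.2 CPM in D1, 2.34, 4.81 and 2.26 in wild type and 0.0538, 0.0480 and 0 in miP, a ratio of 988.6 (273.4 to 8167; adjusted p = 1.49e-05). It lies inside the wing hair gene mwh on the opposite strand, which had 1589 counts in D1 and 1 in miP (ratio 1065, 190.9 to 42100), the latter in replicate 2. Reads of the overlapping parts cannot be assigned to either gene.

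Both genes also differed between miP and wild type, as did 5 others, and the comparisons share the miP libraries. nSyb, which encodes a synaptic vesicle SNARE, stood at 126, 131 and 98.1 CPM in D1, above 27.9, 25.1 and 22.3 in wild type and 6.29, 7.68 and 7.58 in miP, without overlap between any of the 3 groups. Between the mutants its log2 fold change was 3.67 ± 0.31 (adjusted p = 7.88e-05). tmod, which encodes an actin-capping protein, stood at 20.8, 35.6 and 35.2 CPM in D1, 7.04, 8.02 and 8.13 in miP and 20.03, 16.5 and 16.3 in wild type, so that miP was below both others (log2 fold change 1.49 ± 0.20, adjusted p = 0.00116). CG33080, on X, stood at 32.7, 62.5 and 81.7 CPM in miP, 1.14, 12.2 and 2.20 in D1 and 0.510, 1.23 and 0.728 in wild type, so that the miP libraries were the highest. It was lower in D1 than in miP (adjusted p = 0.00498, log2 fold change -4.07 ± 0.71), with a value of -5.49 without D1 replicate 2, the highest D1 library. The remaining 2 separated both mutants from wild type and not from each other. CG13360, on X, stood at 59.8, 165 and 122 CPM in D1 and 54.1, 78.9 and 87.8 in miP against 18.6, 13.5 and 14.5 in wild type (D1 minus miP 0.13 ± 0.24, adjusted p = 0.805). CR40469, on X, stood at 3.53, 0.722 and 1.31 and 1.83, 1.10 and 1.04 CPM in the mutants against 1114, 1257 and 1018 in wild type (0.22 ± 0.67, adjusted p = 0.899, and -1.09 without D1 replicate 1). The sign of this small difference between the mutants also turned with the replicate block, at -0.00237.

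For most called genes wild type lay nearer to miP. This held for 518 of the 554 higher genes (93.5%) and 296 of the 313 lower genes (94.6%), on the scale of log2 normalised CPM with a pseudocount of 0.5. Wild type lay between the mutants for 380 and 209 of them, and D1 also differed from wild type for 395 and 221 while miP did so for 4 and 1. These contrasts share libraries and are given side by side, not as independent evidence. In all, D1 against wild type gave 505 higher (6.14%) and 298 lower (3.62%) genes of those tested, and miP against wild type 2 (0.0243%) and 5 (0.0608%). Wild type was nearer to D1 for 53 called genes, among them SK, Hsp70Bbb, bou, mRpL32 and upd3 of the lists below. In this group the lysozyme gene LysE stood at 71.997, 26.8 and 28.3 CPM in D1, 0.591, 2.31 and 0.824 in miP and 4.25, 8.26 and 9.28 in wild type (log2 fold change 4.89 ± 0.76, adjusted p = 0.00268). Its log2 value was 3.77 without D1 replicate 1 and 5.64 without miP replicate 2. CBP had 283 counts in D1 and 0 in miP, at least 63.24-fold higher. LysD, next to LysE and close to it in sequence, had 14.8, 5.16 and 6.66 CPM in D1 and 0.215, 0.432 and 0.220 in miP, and reads may be split between the copies (log2 fold change 4.68 ± 0.72, and 3.62 without D1 replicate 1).

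Among the most abundant products of the secondary cell, Acp32CD and 2 lectins were lower in D1. CG9029, a secreted product of unknown function, took 38.7, 13.8 and 14.3% of the counts in D1 and 32.0, 15.8 and 18.9% in miP, with replicate 1 highest in both (log2 fold change -0.27 ± 0.60, adjusted p = 0.85, and -1.44 without D1 replicate 1). Acp32CD, an accessory gland protein, took 8.76, 10.2 and 9.09% against 13.9, 18.9 and 16.1%, without overlap, and was 2.33-fold lower in D1 (log2 fold change -1.22 ± 0.25, adjusted p = 0.0131). Females need a network of proteins to retain Sex Peptide after mating, and 10 of its 12 listed members were tested. Of these 1 (10%) was higher and 2 (20%) lower, against 6.74 and 3.81% over all genes. The 2 lower members were the lectins: lectin-46Cb took 5.19, 6.16 and 6.64% in D1 against 7.95, 11.07 and 12.5% in miP (adjusted p = 0.00724, log2 fold change -1.23 ± 0.23). lectin-46Ca took 4.80, 4.96 and 5.07% against 7.05, 7.58 and 7.91% (log2 fold change -1.02 ± 0.25, adjusted p = 0.0302). The higher member was hdly, with 77 counts in D1 and 0 in miP, at least 17.21-fold more (adjusted p = 0.02, and 0.0712 with the replicate number as a block). CG17575, the cysteine-rich protein of the network, took 9.14, 10.99 and 8.93% against 9.98, 11.3 and 9.92% and did not pass the threshold (log2 fold change -0.53 ± 0.26, adjusted p = 0.252). Without D1 replicate 2 or 3 or miP replicate 2 the call of hdly was lost as well (0.0534 to 0.0655). Without miP replicate 2 Acp32CD had an adjusted p of 0.0572, and lectin-46Ca lost its call when any library other than D1 replicate 1 was left out, with adjusted p from 0.0608 to 0.0951. Acp32CD and both lectins were not past the threshold in a fit of all 13 libraries (0.105 to 0.193) or of the 6 D1 and miP libraries (0.0535 to 0.126).

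Arc1 was the most abundant gene that was higher in D1. It encodes a protein related to retroviral Gag that forms capsids around its own mRNA. It took 2.90, 7.57 and 7.67% of the counts in D1 and 0.388, 0.636 and 0.448% in miP, with every D1 library above every miP library. The difference was 8.46-fold (log2 fold change 3.08 ± 0.28, adjusted p = 1.15e-04). Replicate 1 of D1 held the lowest D1 share.

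Several genes that fold proteins in the endoplasmic reticulum (ER), the entry point of secretion, were higher in D1. Of 34 listed ER folding and unfolded protein response genes, which were all tested, 9 (26.5%, against 6.74% over all genes) were higher and 0 lower. The median log2 fold change was 0.59, against 0.04 over all genes. At an unadjusted p under 0.05 there were 19 (55.9%) higher and 0 lower, against 14.2 and 10.5% over all genes. The list as a whole took 0.909 to 2.05% of the counts in D1 and 0.471 to 0.718% in miP. wbl, which encodes an ER protein related to disulphide isomerases, held 68.7, 68.03 and 59.4 CPM in D1 and 4.57, 8.69 and 4.39 in miP (adjusted p = 7.97e-04, log2 fold change 3.09 ± 0.39). Pdi, protein disulphide isomerase, held 421, 1190.2 and 1180.2 against 107, 221 and 172 CPM (1.95 ± 0.27, adjusted p = 0.0013). Both genes had every D1 library above every miP library, as did 24.3% of all genes tested. Replicate 1 of D1 was lower in Pdi than the other D1 libraries. The log2 fold change was 1.75 ± 0.22 for the lectin chaperone gene Cnx99A, 1.69 ± 0.23 for prtp, of a thioredoxin-domain protein, and 1.69 ± 0.27 for Hsc70-3, which encodes the BiP chaperone. The other 4 called genes were Crc (calreticulin), P58IPK, CG11999 and Gadd34, whose product lifts the stress block on translation, with log2 fold changes of 0.90 to 1.16. All of the called genes but P58IPK, CG11999 and Gadd34 stayed past the threshold with any 1 library left out. For these 3 the adjusted p was 0.0535 to 0.113 without D1 replicate 2, miP replicate 1 or any 1 wild-type library, and at least 1 further library. The count of higher members was 6 to 18 with 1 library left out, 20 without replicate 1 of both mutants, and 5 in a fit of the 6 D1 and miP libraries, where Crc was lost too (0.0886).

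Of 42 tested genes of ER translocation and vesicle coats, 8 (19%) were higher and 0 lower, against 6.74 and 3.81% over all genes (median 0.59). At an unadjusted p under 0.05 there were 15 (35.7%) and 0, against 14.2 and 10.5% over all genes. Among the 8 were the translocon subunits Sec61alpha (0.86 ± 0.21) and Sec61beta (1.82 ± 0.48), the signal recognition subunit Srp9 (1.05 ± 0.26) and the translocation protein gene Trp1 (1.08 ± 0.20), beside KdelR, Sec63, eca and p24-1. Sec61beta stood at 381, 187 and 176 CPM in D1 and 64.3, 56.6 and 51.2 in miP, and without D1 replicate 1, the highest, its log2 fold change was 0.93. These calls were close to the threshold. The count was 14 without D1 replicate 1 and 9 without D1 replicate 3, but 2 without D1 replicate 2 and 1, Trp1, without any 1 of the miP or wild-type libraries (0.0512 to 0.136 for the genes lost). It was 0 in a fit of the 6 D1 and miP libraries and 21 without replicate 1 of both mutants. There were 2 lower members without D1 replicate 1, and also 2 without replicate 1 of both mutants. Of 47 tested glycosylation genes 6 (12.8%) were higher and 3 (6.38%) lower, against 6.74 and 3.81% over all genes (median 0.12). Mgat1, an enzyme of complex N-glycan synthesis, held 27.2, 107 and 107 against 8.65, 10.1 and 18.5 CPM (2.13 ± 0.36, adjusted p = 0.00446), and tw, a protein O-mannosyltransferase, 5.003, 36.7 and 41.3 against 1.61, 4.90 and 4.83 CPM (2.28 ± 0.55, adjusted p = 0.0255). The lower members were CG31690, Gfat1, which feeds the hexosamine pathway (-1.51 ± 0.25, adjusted p = 0.00384), and GalNAc-T1, which starts mucin-type chains (-1.27 ± 0.35, adjusted p = 0.0437). With library totals alone Gfat1 (0.089) and GalNAc-T1 (0.402) did not pass, and GalNAc-T1 kept its call only without D1 replicate 1 or 2 (0.0701 to 0.126 otherwise). tw lost its call when any library of D1 other than replicate 1, or any of miP, was left out (adjusted p from 0.0653 to 0.0814). The other higher members were CG1291, CG6308, FucTC and alpha-Man-I, of which CG1291 kept its call with any 1 library left out, and left-out libraries gave 2 to 15 higher and 2 to 4 lower members.

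Among heat-inducible chaperones and related genes, 9 of 25 tested (36%, against 3.81% over all genes) were lower in D1 and 0 higher, while 16 did not pass (median -0.60). At an unadjusted p under 0.05, 12 (48%, against 10.5% over all genes) were lower and 0 higher. With library totals alone 4 were lower at an adjusted p under 0.05 and the median was -0.14. The co-chaperone gene stv, a partner of Hsc70 proteins, held 392, 693 and 942 CPM in D1 and 2787, 4151 and 3143 in miP, 7.13-fold lower in D1 (adjusted p = 7.88e-05). DnaJ-1, an Hsp40, held 167, 118 and 174 against 567, 647 and 711 CPM (-2.45 ± 0.31, adjusted p = 7.97e-04), while Hsromega, a nuclear RNA made upon heat shock, held 762, 829.8 and 1328 against 1787, 2878 and 3132 CPM (-1.85 ± 0.26, adjusted p = 0.00131). The D1 libraries were below the miP libraries in each of these 3 genes, an order found in 3.78% of all genes tested. Hsp70Ba held 10.4, 22.5 and 26.7 against 132, 311 and 171 CPM (-3.88 ± 0.34, adjusted p = 8.18e-05), an uncertain value since near-identical Hsp70 copies share reads. Hsp83, the Hsp90 of the fly and among the 10 most abundant genes, took 0.283, 0.708 and 0.953% of the counts in D1 and 0.827, 1.44 and 1.17% in miP, with D1 replicate 3 above miP replicate 1 (-1.37 ± 0.27, adjusted p = 0.0106, and 0.199 with library totals alone). The other called genes were Hsp70Bb, Hsp70Bbb, Hsp70Bc and Droj2, with adjusted p of 0.166 to 0.666 under library totals alone. Hsp70Bb, Hsp70Bbb and Droj2 also lost the call when any library other than D1 replicate 1 was left out (0.0533 to 0.133), and Hsp70Bc without D1 replicate 2 (0.0504). Left-out libraries gave 5 to 13 lower members and 13 were lower without replicate 1 of both mutants.

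**Figure D4:**
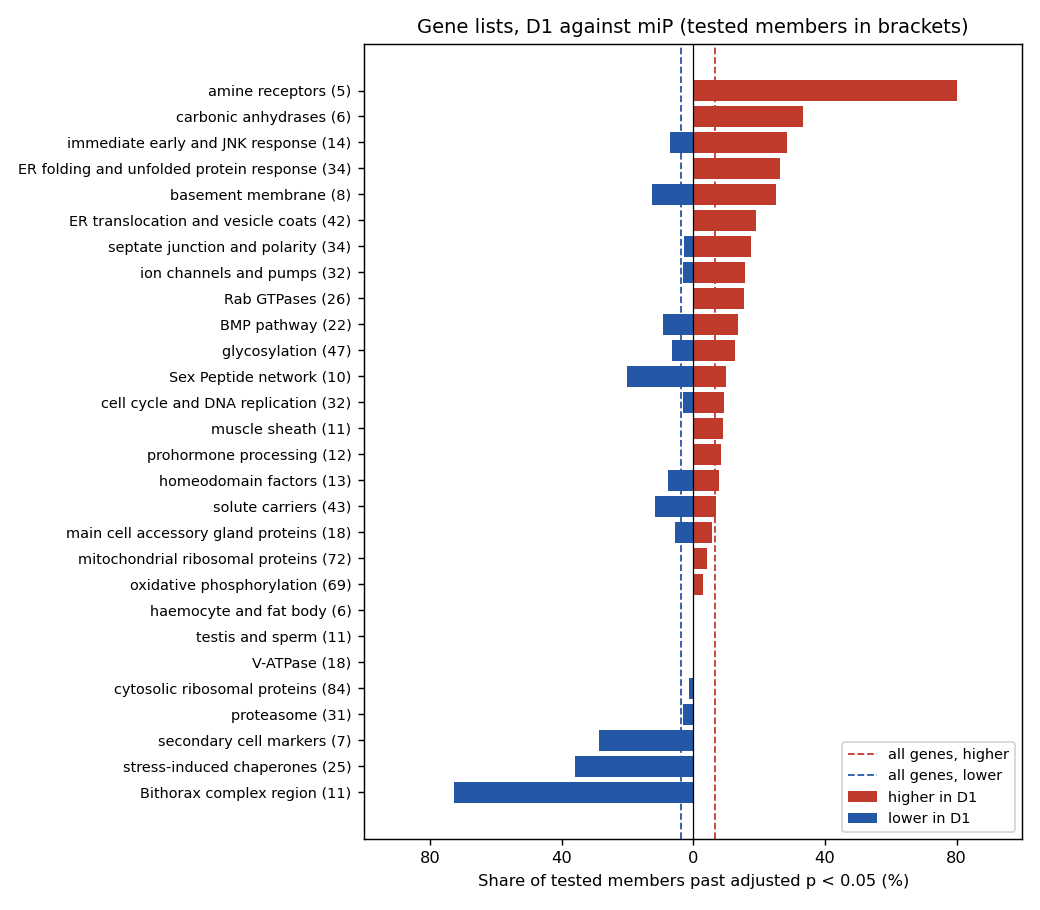
Share of the tested members of each gene list (number in brackets) that passed an adjusted p of 0.05, with members higher in D1 to the right in red and lower to the left in blue (x axis, %); dashed lines are the shares over all 8222 genes, 6.74% higher and 3.81% lower. Lists with under 5 tested members are not drawn, the short lists rest on few genes, and with library totals alone 4 in place of 9 stress-induced chaperones were lower.

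Receptors for biogenic amines had the largest share of higher genes among the lists with at least 5 tested members, with 5 of 17 tested. These receptors couple octopamine, tyramine and serotonin to G proteins. Of the 5, 4 (80%) were higher in D1 and 0 lower, against 6.74 and 3.81% over all genes. At an unadjusted p under 0.05 the counts were also 4 and 0, against 14.2 and 10.5% over all genes. Oct-TyrR, the octopamine and tyramine receptor, stood at 65.6, 137 and 157 CPM in D1 and 1.99, 1.49 and 1.70 in miP, 47.2-fold higher (log2 fold change 5.56 ± 0.31, adjusted p = 1.03e-05). The beta-adrenergic-like octopamine receptor gene Octbeta2R stood at 14.6, 12.3 and 15.2 against 0, 0.624 and 0.769 CPM (4.58 ± 0.82, adjusted p = 0.00574). It was under 1 CPM in each wild-type library too and passed the filter on low counts through D1, so the 80% share depends in part on that filter. Octbeta3R stood at 29.8, 63.1 and 53.4 against 10.9, 8.36 and 13.1 CPM (1.66 ± 0.28, adjusted p = 0.00453). All D1 libraries lay above all miP libraries in these 3 genes, as in 24.3% of all genes tested. The serotonin receptor gene 5-HT2A had a smaller difference (0.85 ± 0.21, adjusted p = 0.0282). It lost the call when any library other than D1 replicate 1 was left out, with adjusted p from 0.0513 to 0.101.

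A BMP ligand, an antagonist and an activin-like ligand were higher in D1. BMP signalling is known to act in secondary cells of adult males. Of 22 tested members 3 (13.6%) were higher and 2 (9.09%) lower, against 6.74 and 3.81% over all genes (median 0.08). The secreted antagonist sog stood at 25.9, 27.2 and 40.2 CPM in D1 and 0.161, 0.0480 and 1.15 in miP (5.71 ± 0.92, adjusted p = 0.00322, and 7.65 on the log2 scale without miP replicate 3). The BMP ligand dpp had 204 counts in D1 and 3 in miP, a ratio of 45.6 (15.4 to 222.9; adjusted p = 0.011). Its miP counts were all in replicate 1, and without miP replicate 2 its fitted log2 fold change of 5.29 was 4.66. The activin-like ligand daw stood at 4.43, 7.22 and 11.3 against 0.968, 0.144 and 1.21 CPM (2.76 ± 0.66, adjusted p = 0.0246), and lost its call without D1 replicate 2 (0.0557) or 3 (0.0773). The lower members were the type II receptor gene wit, at 3.24, 26.3 and 22.5 CPM in D1 and 31.9, 34.9 and 41.5 in miP (-1.69 ± 0.45, adjusted p = 0.0402), and the ligand gbb (-0.80 ± 0.21, adjusted p = 0.0393). D1 replicate 1 was the lowest library of wit. wit kept its call only without D1 replicate 1 or 2 (0.0636 to 0.105 otherwise) and gbb only without D1 replicate 1 (0.0701 to 0.13), and neither passed with library totals alone (0.265 and 0.645). Left-out libraries gave 2 to 5 higher and 0 to 2 lower members, 0 lower with any library left out other than D1 replicate 1 or 2, and library totals alone gave 6 and 0.

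The immediate early and Jun kinase genes included 4 higher (28.6%) and 1 lower (7.14%) of 14 tested, against 6.74 and 3.81% over all genes (median 1.05). kay, the fly Fos, stood at 34.2, 80.5 and 85.2 CPM in D1 and 8.76, 14.4 and 12.9 in miP (1.95 ± 0.23, adjusted p = 6.48e-04). Its partner Jra, the fly Jun, stood at 64.9, 82.1 and 85.999 against 25.7, 27.1 and 25.6 CPM (1.11 ± 0.22, adjusted p = 0.0101). The matrix metalloproteinase gene Mmp1, a known target of the pathway, stood at 32.97, 79.8 and 66.2 against 10.4, 11.6 and 9.94 CPM (1.95 ± 0.25, adjusted p = 8.65e-04). In these 3 genes every D1 library was above every miP library, an order found in 24.3% of all genes tested. The cytokine gene upd3 was low in both mutants (4.25 ± 1.14, adjusted p = 0.0411), lost its call with the replicate block (0.0663) and when D1 replicate 2 or 3 or any miP library was left out (0.0766 to 0.12), and had a log2 fold change of 4.92 without miP replicate 3. Ilp8, a relaxin-like peptide gene, was lower in D1 at 0.953, 0.670 and 1.45 against 4.30, 3.79 and 2.25 CPM (-2.22 ± 0.49, adjusted p = 0.0167), and not past the threshold without D1 replicate 2 (0.0596) or miP replicate 1 (0.057).

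Of 32 tested ion channels and pumps 5 (15.6%) were higher and 1 (3.12%) lower, against 6.74 and 3.81% over all genes (median 0.29). The counts were 10 and 2 without D1 replicate 1, and 11 and 2 without replicate 1 of both mutants. Beside ppk20, the higher genes were RyR, the calcium release channel of the ER (4.76, 27.7 and 31.2 against 0.323, 0.0961 and 0.384 CPM, 5.66 ± 0.72, adjusted p = 8.37e-04), the potassium leak channel gene Ork1 (3.36 ± 0.67, and 4.10 without miP replicate 3), the pacemaker channel gene Ih (2.56 ± 0.41) and nrv2, a sodium pump subunit (1.90 ± 0.25). Ork1 had an adjusted p of 0.0506 without miP replicate 2. The lower gene was SK, a calcium-gated potassium channel (-2.41 ± 0.49, adjusted p = 0.0113, but 0.054 without D1 replicate 2). SK stood at 0.715, 0.722 and 1.13 CPM in D1 and 4.14, 2.64 and 2.91 in miP. Wild type, at 0.808, 0.944 and 0.613 CPM, lay near D1, so that miP was the highest. Of 43 tested solute carriers and metal-handling genes 3 (6.98%) were higher and 5 (11.6%) lower, against 6.74 and 3.81% over all genes (median 0.15). These counts were 11 and 6 without D1 replicate 1, 7 and 7 with DESeq2, and 7 and 1 with library totals alone. The amino acid transporter gene path stood at 86.9, 261 and 365 CPM in D1 and 17.7, 22.8 and 27.95 in miP (2.80 ± 0.32, adjusted p = 5.38e-04), and the sodium-proton exchanger gene Nhe3 at 426, 590.0 and 648 against 67.2, 99.5 and 112 (2.13 ± 0.21, adjusted p = 1.90e-04). Both had every D1 library above every miP library, as did 24.3% of all genes tested. Beside Glut3, the lower members were Mco1, a multicopper oxidase gene (-2.35 ± 0.44, adjusted p = 0.00718, and 0.064 with library totals alone), the zinc transporter genes Zip88E (-1.27 ± 0.19) and ZnT77C (-0.90 ± 0.22), and Orct, an organic cation transporter gene (-1.76 ± 0.43). With library totals alone Zip88E (0.0915), ZnT77C (0.524) and Orct (0.176) did not pass. ZnT77C was also lost without D1 replicate 2, miP replicate 2 or 3 or any 1 wild-type library (0.0587 to 0.107), and Orct without D1 replicate 3, miP replicate 2 or 3 or wild-type replicate 2 (0.0504 to 0.0969). A further zinc transporter gene, ZnT86D, was higher (1.39 ± 0.21). Of 6 tested carbonic anhydrases, enzymes that interconvert carbon dioxide and bicarbonate, 2 (33.3%, against 6.74% over all genes) were higher and 0 lower. CAH1 stood at 14.96, 31.8 and 33.3 against 0.538, 0.336 and 0.824 CPM (5.03 ± 0.38, adjusted p = 3.82e-05) and CG11284 (CAH3) at 49.2, 70.2 and 70.9 against 17.4, 26.6 and 20.5 (1.10 ± 0.21, adjusted p = 0.00792). CAH1 was under 1 CPM in each wild-type library too and passed the filter on low counts through D1.

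Of 8 tested basement membrane genes 2 (25%) were higher and 1 (12.5%) lower, against 6.74 and 3.81% over all genes (median 0.14). Ndg, the fly nidogen, held 23.3, 201 and 218 CPM in D1 and 0.376, 1.39 and 0.714 in miP (6.83 ± 0.95, adjusted p = 0.00133), with replicate 1 of D1 far below the others yet above all miP libraries. Mp, a collagen of the multiplexin type, held 5.38, 11.5 and 17.96 against 0.269, 0 and 0.165 CPM (5.71 ± 1.10, adjusted p = 0.00862, with 6.68 and 5.08 on the log2 scale without miP replicate 1 and 2). Mp was under 1 CPM in each wild-type library too and passed the filter on low counts through D1. trol, the fly perlecan, was 17.1-fold lower in D1, at 1.62, 1.08 and 2.95 against 16.4, 22.2 and 33.9 CPM (adjusted p = 1.62e-04). Of 34 tested septate junction and polarity genes 6 (17.6%) were higher and 1 (2.94%) lower, against 6.74 and 3.81% over all genes (median 0.10). With 1 library left out 3 to 9 were higher. The adhesion molecule gene Fas3 held 108, 105 and 135 CPM in D1 and 28.004, 19.6 and 36.7 in miP (1.62 ± 0.29, adjusted p = 0.00643), and the junction gene bou 21.3, 12.3 and 16.5 against 4.41, 3.70 and 2.64 CPM (1.85 ± 0.44, adjusted p = 0.0245). bou was called at 1.26 on the log2 scale without D1 replicate 1, and its adjusted p was 0.0875 and 0.0851 without miP replicate 2 and 3. The other higher members were p120ctn, nrv2, Ssk and pck. Ssk lost its call without any 1 miP library (0.058 to 0.0713) and pck when any library other than D1 replicate 1 or 3 was left out (0.0516 to 0.0749). The lower member was the neuroglian gene Nrg (-0.84 ± 0.19, adjusted p = 0.0174). Its adjusted p was 0.051 to 0.0788 without D1 replicate 2 or miP replicate 1 or 3, and 0.423 with library totals alone.

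Secondary cells of adult males are post-mitotic. Of 32 tested cell cycle and replication genes 3 (9.38%, against 6.74% over all genes) were higher in D1 and 1 (3.12%, against 3.81%) lower (median -0.02, and 0.36 with library totals alone). The ribonucleotide reductase genes RnrS and RnrL held 6.38, 7.63 and 11.6 and 12.1, 29.6 and 38.8 CPM in D1 against 0.215, 0 and 0.110 and 3.60, 8.02 and 9.83 in miP. Their log2 fold changes were 5.75 ± 0.81 and 1.39 ± 0.33 (adjusted p = 0.00146 and 0.0256). The value of RnrS was 6.87 without miP replicate 1 and 5.12 without miP replicate 2, and RnrL lost its call without D1 replicate 2 or 3 or miP replicate 1 or 2 (0.0695 to 0.087). PCNA, the sliding clamp of replication, held 7.86, 8.72 and 8.11 CPM in D1 and 0.484, 0.480 and 0.439 in miP (3.70 ± 0.56, adjusted p = 0.00231). The mitotic kinase gene aur (aurA) was lower in D1, at 10.3, 18.98 and 20.3 against 37.7, 65.9 and 85.7 CPM (-2.40 ± 0.25, adjusted p = 2.94e-04).

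Among lists of general cell machinery, calls were at or below the 6.74% higher and 3.81% lower over all genes, except among Rab GTPases. At an unadjusted p under 0.05 the shares over all genes were 14.2 and 10.5%. Of 84 tested cytosolic ribosomal protein genes 0 were higher and 1, RpL6, lower (median -0.13, and 0.24 with library totals alone). RpL6 lost its call without D1 replicate 2 or 3, miP replicate 1 or 2 or wild-type replicate 2 or 3 (0.0515 to 0.0951). Without replicate 1 of both mutants 24 of the ribosomal protein genes were lower, and 0 to 16 with 1 library left out. Their median in replicate 1 stood above that of the other replicates by 1.54 on the log2 scale in D1 and 1.09 in miP. Of 69 tested oxidative phosphorylation genes 2, CG9350 and SdhC, were higher and 0 lower, with 11 higher without replicate 1 of both mutants and 15 with library totals alone. Their median log2 fold change was 0.52 with 66 above 0, against 0.04 and 4298 of 8222 over all genes. In the oxidative phosphorylation genes the median of replicate 1 stood above the others by 1.44 in D1 and 0.70 in miP. CG9350 and SdhC lost the call when any library other than D1 replicate 1 or 3 was left out (0.0507 to 0.133). The 72 tested mitochondrial ribosomal protein genes had 3 higher and 0 lower (median 0.32, with 8 and 0 at an unadjusted p under 0.05), but 12 higher with library totals alone and 5 with DESeq2. Of the 3, mRpL3 kept its call with any 1 library left out, while mRpL21 and mRpL32 kept theirs only without D1 replicate 3 (0.0507 to 0.132 otherwise). The 31 tested proteasome genes had 0 and 1, Rpt2 (median -0.14, and 0.28 with library totals alone). Rpt2 kept its call only without D1 replicate 1 (0.0775 to 0.123 otherwise). The 18 tested subunits of the vacuolar ATPase had 0 calls in the main edgeR fit (median 0.12). There were 2 higher and 1 lower at an unadjusted p under 0.05, and 2 higher and 1 lower with DESeq2. Without D1 replicate 1 there were 2 higher and 2 lower, and with library totals alone 3 and 0. Of 4 tested antimicrobial peptide genes and 11 tested testis and sperm genes 0 passed in the main edgeR fit. The count was also 0 at an unadjusted p under 0.05 or with DESeq2, while 1 testis and sperm gene was lower without D1 replicate 1. Of 26 tested Rab GTPases, which direct vesicle traffic, 4 (15.4%, against 6.74% over all genes) were higher and 0 lower, with 9 and 1 at an unadjusted p under 0.05 (median 0.24): RabX6 (2.21 ± 0.41, adjusted p = 0.00721), Rab39 (1.57 ± 0.38, 0.0256), Rab30 (0.91 ± 0.26, 0.0498) and Rab8 (0.80 ± 0.22, 0.043). Rab30 and Rab8 lost the call with the replicate block (0.0657 and 0.064) and with 7 and 8 of the 9 libraries left out singly (0.0517 to 0.142), and Rab39 without miP replicate 2 (0.0927) or 3 (0.0762). Without D1 replicate 1 there were 6 higher and 2 lower Rab GTPases, and without replicate 1 of both mutants 7 and 3.

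Of 18 tested accessory gland proteins known from main cells, 1 (5.56%) was higher and 1 (5.56%) lower, near the 6.74 and 3.81% over all genes. Of the 18, 16 had a log2 fold change above 0 (median 0.88), against 4298 of all 8222 genes tested. The lower gene was Acp32CD, which secondary cells express strongly. The higher gene was Acp63F, at 316, 101 and 95.1 CPM in D1 and 15.5, 18.8 and 7.08 in miP (3.41 ± 0.79, adjusted p = 0.0222). Its log2 value was 2.09 without D1 replicate 1, the library with the highest summed main cell markers (1838 CPM), and its adjusted p was 0.0635 to 0.0818 without any 1 of the miP libraries. The median of the list stood above the other D1 replicates by 2.47 on the log2 scale in D1 replicate 1, and by 0.39 in miP replicate 1. Main cell RNA and expression by the sorted cells cannot be told apart here.

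How many genes passed depended on which libraries were included. With 1 library left out the count lay between 334 and 907 higher and between 191 and 614 lower. It was 907 and 614 without D1 replicate 1, 362 and 191 without D1 replicate 2, 334 and 201 without miP replicate 2, and 369 and 198 without miP replicate 3. Leaving out replicate 1 of both mutants gave 1007 and 732. No gene called with all 9 libraries was called in the opposite direction in any of these settings.

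**Figure D5:**
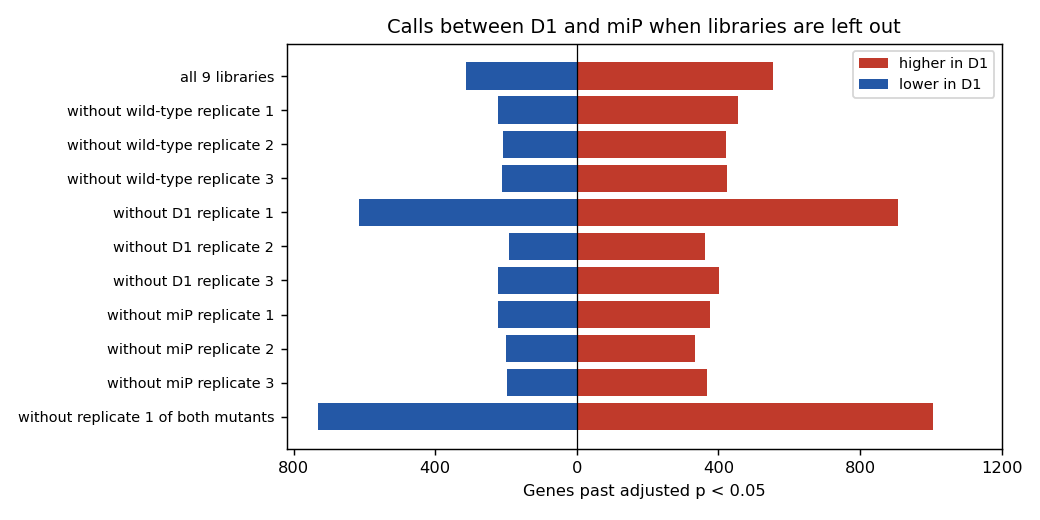
Number of genes past an adjusted p of 0.05 between D1 and miP (x axis), higher in D1 to the right in red and lower to the left in blue, with all 9 libraries, with each library left out in turn and without replicate 1 of both mutants. The count is highest, 1007 and 732, without replicate 1 of both mutants and 907 and 614 without D1 replicate 1 alone.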

How the data were processed

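The deposited values are raw read counts per gene, which the authors made from single reads of 100 nt on dm6 with STAR and HTSeq, per the submitters' processing notes. The versions and settings were not given in the sources used here. Per the labels, libraries came from 2 ng of RNA by oligo(dT) priming, SMARTer amplification and Nextera XT, without strand information or molecular barcodes. All 13 columns were assigned to samples, with 0 left over. Of 16727 symbols, 12512 had the same name in the dm6 annotation of Ensembl release 115, 4011 were found there by a synonym and 204 had no match.

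The 9 sorted libraries were fitted together with genotype as the term in edgeR 4.0.16 (R 4.3.3): TMM factors, filterByExpr, quasi-likelihood F-tests, Benjamini-Hochberg adjustment at 0.05. The procedure was tested on simulated data. Tables and figures were made with Python 3.11.15, pandas 2.3.3, numpy 2.4.6, scipy 1.17.1 and matplotlib 3.10.9. Where a mutant had 0 counts, folds are bounds, set with 3 counts over the group as the floor. With 1 to 3 counts, ratios have exact 95% intervals. A gene could pass filterByExpr through the libraries of 1 group alone, so the shares of list members called depend in part on that filter.

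Named genes were the 15 largest changes each way past 0.05 with at least 5 CPM in the higher group and no overlap, the genes of the Bithorax complex, up to 4 members past 0.05 per list, and the 10 most abundant genes; others were chosen after their values were seen, namely further called list members, the flanking genes of the complex, the genes that differed between miP and wild type, and CBP, LysD and LysE. Members and lists were chosen with earlier results of these data known.

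Replicate numbers recur in each group. Deviations of same-numbered D1 and miP libraries from their group means correlated with r = 0.432, 0.169 and 0.312, each above 0.1, so the numbers were taken as pairs in an alternative with a replicate block. The unmatched pair of D1 replicate 2 and miP replicate 3 had r = 0.170, as high as matched pair 2. The other alternatives were DESeq2 1.42.0, RLE or upper-quartile factors, library totals alone, testing every gene or those with 5 CPM in 3 libraries, fitting 6 or 13 libraries, treat with a log2 threshold of 1, and left-out libraries.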

Additional observations from a re-analysis of the deposited data

How the results depend on the processing

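Of 136 named genes past the threshold, 67 kept the call under each of the 21 alternatives that tested them, and the other 69 lost it under at least 1, with 0 changing direction. DESeq2 and RLE factors ended 0 of these calls, the replicate block 6, upper-quartile factors 8, no filter 11, library totals alone 17, all 13 libraries 19, a fit of the 6 D1 and miP libraries 48 of 135, a log2 threshold of 1 65, and single left-out libraries 3 to 42. The counts of 554 higher and 313 lower genes became 855 and 541 with DESeq2, 1032 and 126 with library totals alone, 336 and 139 with the 6 libraries, 210 and 89 against a log2 threshold of 1, and 1007 and 732 without replicate 1 of both mutants. With 1 library left out they ranged from 334 to 907 and from 191 to 614. The replicate block gave 538 and 337 genes with 9 libraries and 593 and 346 with 6. With 9 libraries it ended the calls of Rab30, Rab8, hdly, upd3, CG17562 and p24-1 (0.0503), with 6 those of Rab30 (0.072), Rab8 (0.0744), CG17562 (0.0758), CG6308 (0.0575), Droj2 (0.0572) and Rpt2 (0.0521), and no other call of a named gene. Uncalled log2 fold changes changed sign for Abd-B (0.0382), CG9029 (0.00329) and mfas (0.0442) with library totals alone, and for CR40469 with the block (-0.00237 with 9 libraries, -0.19 with 6). Without replicate 1 of both mutants CR40469 stood at -0.65 and CR43617 at -0.37. With 1 library left out CG9029 ranged from -1.44 to 0.28, CR40469 from -1.09 to 0.68, CR43617 from -0.57 to 0.56 and CG13360 from -0.0923 to 0.28. The cause of these shifts was not tested. Depth limits the low genes: 3 counts over the group correspond to 0.0365 normalised CPM in D1 and 0.0545 in miP.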
